A study of Neurospora crassa with 33 samples.

Results

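The subject is the set of 100 *N. crassa* genes whose mRNA stood highest in Δ*cpc-3* relative to WT, and the question is whether the ribosome footprints of these genes moved with their mRNA. The 100 genes were chosen by their mRNA level in the same 8 mRNA-seq libraries that are described here, out of 6947 eligible genes and 9729 genes listed in all. A gene was eligible if its CDS was at least 300 nt long and its mean level over the 4 Δ*cpc-3* mRNA libraries was at least 5, and the eligible genes were ranked by the smallest of the 4 Δ*cpc-3*-to-WT log2 differences, 1 per reporter strain. The mRNA difference of the members is therefore a description and was not tested. The footprint libraries had no part in the choice.

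CPC-3 is the eIF2α kinase of *Neurospora*, the homolog of yeast GCN2. Phosphorylation of eIF2α lowers the rate at which ribosomes initiate on most mRNAs, and in amino acid starvation it raises translation of the transcription factor CPC-1, which activates amino acid biosynthesis genes (cross-pathway control). A ribosome-protected fragment (RPF) marks the position of 1 ribosome on an mRNA, so the RPF level of a gene depends on how much mRNA there is and on how many ribosomes each mRNA carries.

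The WT strains derived from a wild-type strain of mating type a and the mutant strains from a Δ*cpc-3* strain that lacks the kinase gene. Every strain of both genotypes also expressed 1 of 4 Flag-tagged reporters under the *ccg-1* promoter at the *csr-1* locus, which hold 1 copy (1×) or 3 copies (3×) of the EDP CDS with its own codons (WT-EDP) or with optimal codons (OPT-EDP). Mycelia were grown at room temperature in Vogel's medium with 2% glucose, for 2 days in plates and then for 12 h with shaking in constant light. Cycloheximide was added only at lysis. There was 1 mRNA library per strain (4 WT and 4 Δ*cpc-3*) and 3 RPF replicates per strain, with 4 for Δ*cpc-3* 1× WT-EDP (12 WT and 13 Δ*cpc-3*). The 4 reporter strains of a genotype served as its 4 replicates. They share 1 parental strain per genotype, so a difference of the parental strains other than the deletion cannot be told apart from the deletion.

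The mRNA libraries held 938863 to 1190368 reads on CDS in WT and 1260506 to 1747779 in Δ*cpc-3*, and the RPF libraries 1270403 to 10035081. Levels are reads per kilobase of CDS, scaled so that all genes of a library sum to 1000000. *cpc-3* itself had an mRNA level of 18.2 to 26.2 in WT and of 0.407 to 1.27 in Δ*cpc-3*, and an RPF level of 12.1 to 14.3 and of 0 to 0.379 in single libraries, so the labels and the data match. The hyphal genes *act*, *hex-1*, *chs-1* and the β-tubulin gene *Bml* were expressed in both genotypes, and the 3 *matA* genes were listed at 0 in every library. Markers of asexual spores and aerial hyphae (*con-6*, *con-8*, *con-10*, *con-13*, *eas* and *fl*) differed in their sum. The summed mRNA level was 1409 to 1515 in WT and 2425 to 3429 in Δ*cpc-3*, and the summed RPF level 1652 to 1990.3 and 3228 to 5292. Most of these sums came from *eas* and *con-8*. Of the 4 markers tested in mRNA 1 was called (*eas*, higher), and all 3 tested in RPF were called higher (*con-8*, *eas* and *fl*). *con-6* and *con-10* were not tested in either assay. *con-6* had mean mRNA levels of 7.56 in WT and 10.5 in Δ*cpc-3*, and mean RPF levels of 0.977 and 15.2. *con-10* had mean mRNA levels of 4.33 in WT and 3.19 in Δ*cpc-3*, and mean RPF levels of 6.48 and 9.76. *con-13* had no footprint in any library, and the part of these cells in the results below was not tested.

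Among the 100 members the smallest of the 4 mRNA differences ran from 6.62 on the log2 scale (0.5 added to each level) down to 1.5, and the median of the mean differences was 3.04 against 0.36 for the eligible genes. The median mRNA difference was 0.41 over the 8662 genes with a mean mRNA level of at least 1, whereas the RPF median of all genes tested was -0.01. Of those 8662 genes limma called 15.7% higher and 2.11% lower in mRNA, that is 1358 and 183 genes, and 413 higher and 991 lower after the median was subtracted. The choice used this contrast, so nothing is read from these shares about the members. At the edge of the choice the last 3 members, *NCU05377*, *NCU05869* and *NCU08267*, had smallest differences of 1.51, 1.51 and 1.5, and the first 3 genes outside, *NCU01089*, *acon-3* and *NCU05861*, had 1.5, 1.5 and 1.49. There was no gap at this point.

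The footprints of most, but not all, of these genes were higher in Δ*cpc-3*. RPF levels were tested in the 6809 genes with a CDS of at least 300 nt and a mean RPF level of at least 1 over the 8 merged profiles (1 per strain, 4 against 4, limma with Benjamini-Hochberg adjustment, adjusted p under 0.05). By this test 58 of the 100 members were higher, 1 was lower (*kal-1*), 6 were tested and not called and 35 lay under the minimum and were not tested. Over all genes tested, 21% were called higher and 22.9% lower, 1432 and 1561 genes, and with the deposited FPKM in place of the interval midpoint these numbers were 944 and 2650 of 6516. A member with almost no WT footprints could reach the minimum only through its Δ*cpc-3* libraries, which was so for 12 members with a WT mean under 1, all called higher. Of the 53 members with a WT mean of at least 1, 46 were called higher, against 20.6% of all tested genes with such a mean. In 40 of these 53 every one of the 13 Δ*cpc-3* RPF libraries lay above every one of the 12 WT libraries, which was the case for 5.21% of all tested genes with such a WT mean. The merged RPF profile was higher in all 4 reporters in 46 of the 53, against 26.4%. With the other 12 members included the counts were 50 and 58 of 65, beside 5.39% and 26.9% of all genes tested. For the 12 the RPF values below are given with no p.

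**Figure D1:**
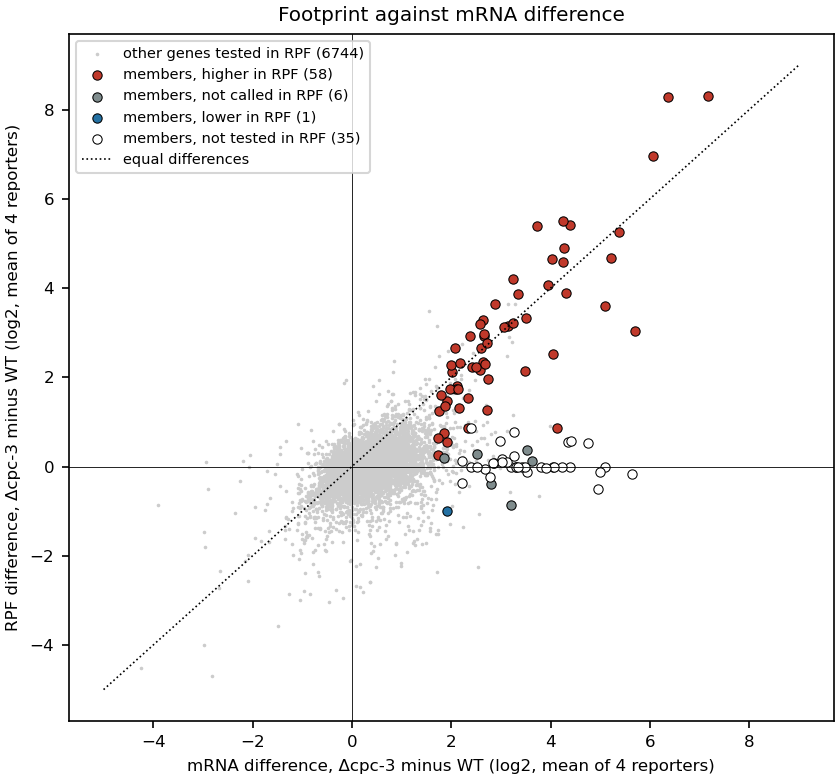
Mean Δcpc-3 minus WT log2 difference in RPF level (vertical axis) against that in mRNA level (horizontal axis), each the mean of 4 reporters, for the 6744 other genes tested in RPF (grey) and the 100 members (coloured by their RPF call, white where not tested). The 58 members called higher lie along or around the dotted line of equal differences, up to an mRNA difference of 7.17. A band of members with an RPF difference near 0 spans mRNA differences from about 2 to 5.64. Most of these are the 35 not tested, whose footprints lay under the RPF minimum, so their RPF difference could not be far from 0 on this scale.

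The highest mean RPF differences of all genes tested were those of *lacc* and *NCU09914*, which did not differ beyond their SE. *lacc* (*NCU04528*) encodes laccase, a secreted copper enzyme that oxidizes phenolic compounds. Its mRNA level was 1.34, 1.35, 4.56 and 2.72 in the 4 WT libraries (in the order 1× and 3× WT-EDP, then 1× and 3× OPT-EDP, which is kept below) and 181, 505, 617 and 415 in the Δ*cpc-3* libraries. Its RPF level was 0.228 to 2.3 (median 0.736) in the 12 WT libraries and 168 to 631 (median 506) in the 13 Δ*cpc-3* libraries, a log2 difference of 8.3 ± 0.33 (SE, adjusted p = 3.1e-07). *lacc* was thus close to silent in every WT library and carried footprints in every Δ*cpc-3* library, and the 1× WT-EDP library was the lowest of the Δ*cpc-3* libraries in mRNA.

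*NCU09914* has no gene symbol. Its mRNA level was 12.2, 0, 2.04 and 8.54 in WT and 186, 315, 312 and 356 in Δ*cpc-3*, and its RPF level 0 to 1.92 (median 0.661) and 223 to 512 (median 425), a difference of 8.29 ± 0.29 (SE). The RPF level of *NCU10641* was 0 to 1.49 (median 0) in WT, where 10 of 12 libraries were listed at 0, and 16.1 to 135 (median 84.6) in Δ*cpc-3*, a difference of 6.97 ± 0.28 (SE). In both genes the groups were far apart, and the mRNA values in WT rested on few reads, from 1.5 (*NCU10641*) to 14.5 (*NCU09914*) over the 4 libraries. Some genes tested had a WT mean RPF level under 1, as *NCU09914* (0.846) and *NCU09629* (0.822) did. They reached the RPF minimum only through Δ*cpc-3*, so a high rank in RPF difference is partly set by the filter. The 10 genes with the highest mean RPF difference among those tested were all members: besides *lacc*, *NCU09914* and *NCU10641* they were *NCU05277*, *NCU09629*, *NCU08051*, *ci-1* (*NCU05001*), *NCU00868*, *NCU09402* and *NCU01070*, with RPF differences of 5.5 down to 4.64.

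Among these, *ci-1* had an mRNA level of 4.11, 0, 1.41 and 1.06 in WT and 24.8, 114, 101 and 68.5 in Δ*cpc-3*. Its RPF level was 0.223 to 1.9 (median 1.03) in WT and 11.5 to 107 (median 77.4) in Δ*cpc-3*, a difference of 5.26 ± 0.36 (SE, adjusted p = 1.1e-05). The lowest Δ*cpc-3* values, in both assays, were again from 1× WT-EDP. *NCU01070*, which the study's annotation lists under aminoacyl-tRNA hydrolase activity, had an RPF level of 7.82 to 16.9 (median 11.9) in WT and 167 to 377 (median 325) in Δ*cpc-3* (4.64 ± 0.16 (SE), adjusted p = 1.5e-07). *NCU05277*, with a CDS of 414 nt, went from an RPF level of 17.9 to 37.1 (median 28.2) to 388 to 1826 (median 1394), and *NCU00868* from 30.7 to 51.1 (median 40.6) to 476 to 1777 (median 1544). In both genes the lowest Δ*cpc-3* library lay above the highest WT library.

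The member with the most mRNA was *NCU04583*. Its mRNA level was 382, 498, 433 and 396 in WT and 2399, 5509, 4886 and 4095 in Δ*cpc-3*, and its RPF level 272 to 457 (median 371) and 3113 to 9222 (median 7905), a difference of 4.19 ± 0.19 (SE, adjusted p = 7.5e-07). All Δ*cpc-3* values exceeded all WT values in both assays. *NCU11050*, at rank 10 in mRNA, had an RPF level of 12.1 to 19.7 (median 14.4) in WT and 161 to 314 (median 259) in Δ*cpc-3* (3.89 ± 0.13 (SE), adjusted p = 1.2e-07). Of the other members near the top of the mRNA order, *NCU06443* had 0.288 to 2.29 (median 0.895) and 9.2 to 26.1 (median 19.6) (3.6 ± 0.27 (SE), adjusted p = 1.8e-05), and *NCU09629* 0.446 to 1.55 (median 0.849) and 40.4 to 82.2 (median 53.9) (5.41 ± 0.16 SE).

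The member ranked 2 in mRNA, *NCU05707*, was listed at 0 in all 4 WT mRNA libraries and in all 12 WT RPF libraries. Its Δ*cpc-3* mRNA level was 28.6, 26.9, 19.2 and 28.4, at least 4.98-fold above the mean level that 3 reads per WT library would give. It had footprints in 9 of the 13 Δ*cpc-3* libraries, and its mean RPF level there of 3.65 was at least 3.26-fold above the corresponding WT floor.

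**Figure D2:**
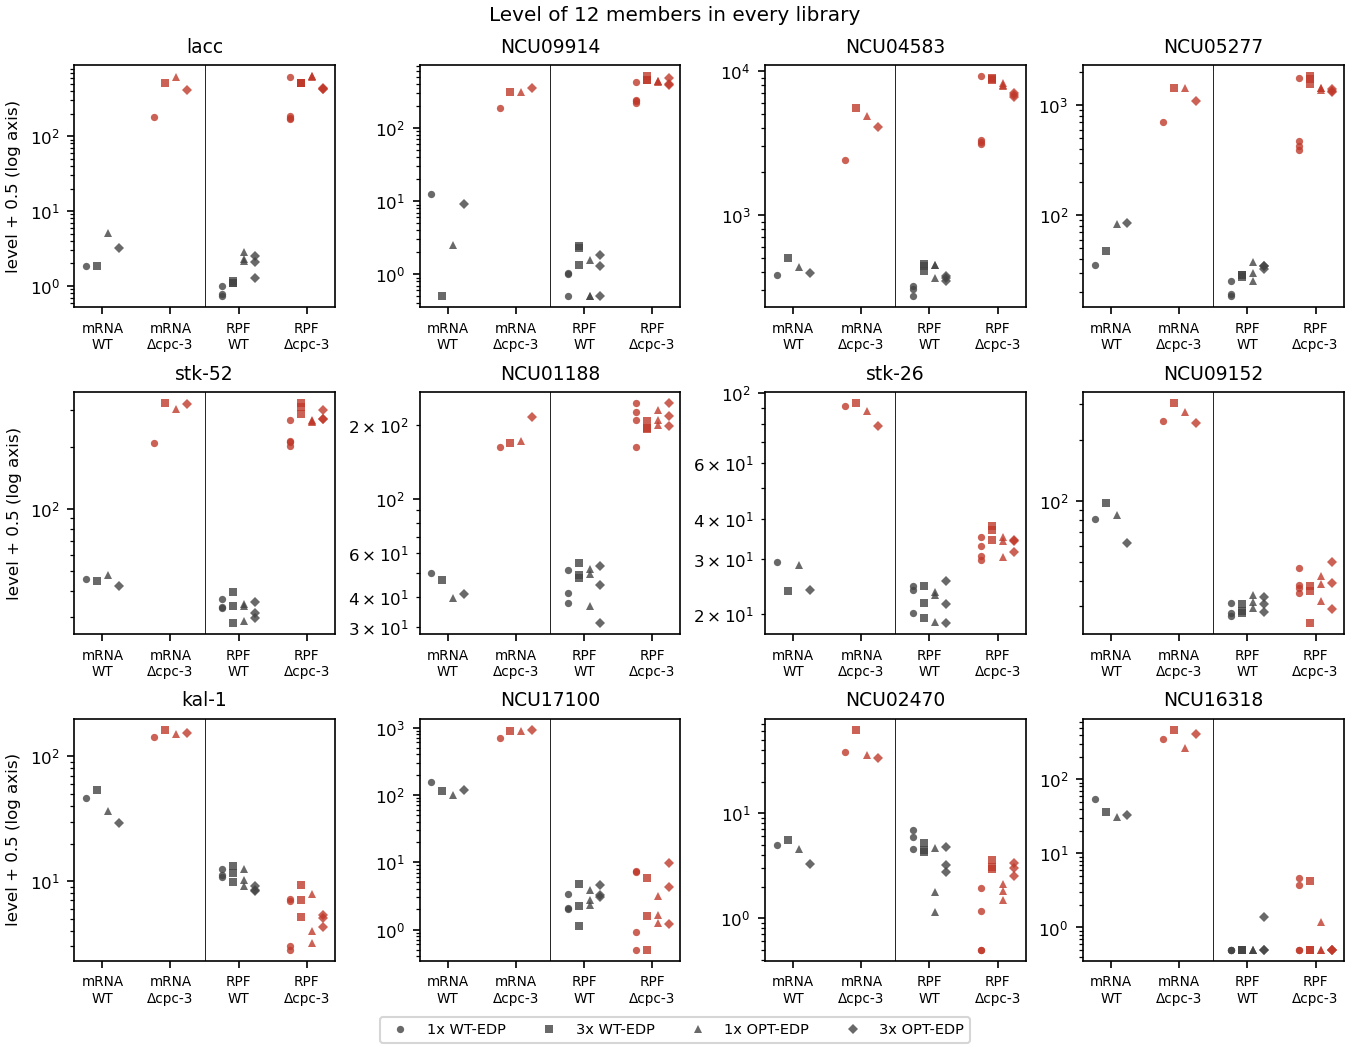
Level plus 0.5 on a log axis of 12 members in each mRNA and RPF library, WT in dark grey and Δcpc-3 in red, with 1 marker shape per reporter. In the upper row and in stk-52 and NCU01188 the red points lie above the grey ones in both assays, whereas for kal-1, NCU17100, NCU02470 and NCU16318 they do so in mRNA and the RPF points overlap or, for most kal-1 libraries, lie lower.

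A pair of serine/threonine protein kinase genes among the members behaved differently in RPF. *stk-52* (*NCU08767*) had an mRNA level of 45.4, 44.3, 47.3 and 41.9 in WT and 207, 322, 304 and 321 in Δ*cpc-3*, and an RPF level of 27.6 to 39.2 (median 33.4) and 202 to 324 (median 268), a difference of 2.98 ± 0.1 (SE, adjusted p = 1.2e-07) beside 2.65 in mRNA. *stk-26* (*NCU04143*) had an mRNA level of 28.8, 23.2, 28.1 and 23.3 and 90.8, 92.7, 87.3 and 78.1, and an RPF level of 18.2 to 24.9 (median 21.8) and 29.2 to 37.4 (median 33.6), a difference of 0.65 ± 0.07 (SE, adjusted p = 1.5e-04) beside 1.74. Both rose in RPF with no overlap between the genotypes, and the gap between the RPF and the mRNA difference, larger in *stk-26*, was not tested. Of the 2 glycoside hydrolase genes, which belong to families of enzymes that cleave bonds between sugars, *gh2-2* (*NCU05956*) had an RPF level of 4.04 to 6.41 (median 5.54) in WT and 7.64 to 12 (median 8.54) in Δ*cpc-3*, a difference of 0.75 ± 0.1 (SE, adjusted p = 4.0e-04) beside 1.86 in mRNA. The other, *gh31-1* (*NCU09281*), had a mean mRNA level of 1.08 in WT and 5.85 in Δ*cpc-3*, and its RPF level of 0.149 and 0.209 was too low to be tested.

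Over the 58 members that rose in RPF, the RPF difference was within 0.5 of the mRNA difference in 26. The RPF difference exceeded the mRNA difference in 26 of the 58 and fell short of it in 32, and the median of RPF minus mRNA difference, the change in ribosome density, was -0.17. The mRNA values chose the members and the RPF call chose the 58, so these figures are a description and are not set against other genes. In 5 members the RPF difference was larger by more than 1: *lacc* (1.13), *NCU09914* (1.93), *NCU08051* (1.67), *NCU05277* (1.26) and *NCU09629* (1.01). In 11 it was smaller by more than 1, among them *NCU09152*, whose mRNA level was 80.9, 97.3, 84.8 and 61.3 in WT and 247, 303, 274 and 243 in Δ*cpc-3* while its RPF level was 26.3 to 33.6 (median 29.6) and 24.4 to 49.1 (median 37.3), a difference of 0.27 ± 0.07 (SE, adjusted p = 0.01). This RPF rise was the smallest of the 58, the libraries overlapped, and it was not called without the 3× OPT-EDP strains. The RPF rise of *NCU04544* (0.54 ± 0.16 (SE), adjusted p = 0.021), also among the 11, was not called with the deposited FPKM, without the 3× WT-EDP or the 1× OPT-EDP strains, or without either of 2 single Δ*cpc-3* libraries.

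Footprints did not follow the mRNA in a further group of members. *kal-1* (*NCU03593*) had an mRNA level of 46, 53.2, 36 and 28.5 in WT and 143, 163, 151 and 152 in Δ*cpc-3*. Its RPF level was 7.87 to 12.8 (median 10) in WT and 2.32 to 8.76 (median 4.7) in Δ*cpc-3*, a difference of -0.99 ± 0.16 (SE, adjusted p = 0.0011), and it was the 1 member called lower in RPF. The mRNA groups did not overlap, and the RPF groups overlapped in part with both above 0.

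*NCU17100* had one of the highest mRNA levels of all members, 155, 115, 99.1 and 118 in WT and 694, 875, 888 and 925 in Δ*cpc-3*. Its RPF level was 0.634 to 4.21 (median 2.39) and 0 to 9.28 (median 1.14), a difference of -0.4 ± 0.23 (SE, adjusted p = 0.2). The RPF libraries of the genotypes overlapped, and without 3× OPT-EDP, or without 1 of its Δ*cpc-3* replicates (replicate 3), the gene was called lower. *NCU02470* had an mRNA level of 4.51, 5.02, 4.02 and 2.81 and 38.1, 61.7, 35.4 and 33. Its RPF level was 0.653 to 6.47 (median 3.98) and 0 to 3.1 (median 1.6), a difference of -0.87 ± 0.35 (SE, adjusted p = 0.071). *NCU02470* was called lower without WT 1× OPT-EDP replicate 2. It was also called lower when the 25 libraries were tested singly, which counts the replicates of 1 strain as independent. *NCU04521* had an mRNA level of 41.3, 38.4, 27 and 29.95 and 136, 215, 214 and 235, and an RPF level of 1.29 to 6.48 (median 3.14) and 1.8 to 12.8 (median 4.69) (0.27 ± 0.28 (SE), adjusted p = 0.47), called higher without 3× WT-EDP. The other 3 tested and not called were *NCU09342* (0.38 ± 0.19 (SE), adjusted p = 0.15, called higher without 1× WT-EDP or without its WT replicate 1), *NCU04937* (0.13 ± 0.53 (SE), adjusted p = 0.86) and *NCU05377* (0.2 ± 0.14 (SE), adjusted p = 0.29), with mean Δ*cpc-3* mRNA levels of 10.4, 23.2 and 19.3.

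The 35 members under the RPF minimum were mostly short and weakly expressed. Their median CDS was 624 nt, against 1737 nt for the 58 that rose and 1386 nt for the eligible genes, and their mRNA reads summed over the 4 Δ*cpc-3* libraries had a median of 29.5 (range 13 to 1320.5) against 694. Of the eligible genes, 5.53% lay under the RPF minimum. Among the 35 were 17 of the 18 members listed at 0 in all 4 WT mRNA libraries, where the mean Δ*cpc-3* level was 0.878 to 2.84 times the level that 3 reads per WT library would give. At this depth a WT level of 0 and a low WT level cannot be told apart in these genes. They include *NCU16681*, *NCU16453* and *NCU17049*, ranked 3, 8 and 9 in mRNA, with Δ*cpc-3* mRNA levels of 11, 15.8, 22.2 and 19.9, 7.89, 6.82, 14.3 and 12.9 and 7.7, 6.66, 12.1 and 14.3. *NCU16681* and *NCU16453* were among the 13 members listed at 0 in all 25 RPF libraries, which was so for 1.47% of the eligible genes, and *NCU17049* had a mean RPF level of 0.344 in Δ*cpc-3*.

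A few of the 35 had ample mRNA. *NCU16318*, annotated as a membrane protein, had an mRNA level of 54.4, 36.1, 30.5 and 32.5 in WT and 344, 465, 262 and 410.2 in Δ*cpc-3*, from 87.5 and 1138 reads. It had footprints in 1 of 12 WT and 4 of 13 Δ*cpc-3* libraries, with a highest level of 4.09. *NCU07351* had an mRNA level of 25.5, 24, 13.1 and 23.7 and 84.4, 113, 96.9 and 102 with RPF levels of 0.226 to 1.93 (median 0.818) and 0 to 1.49 (median 0.516). These are well covered mRNAs that carried close to no footprints in either genotype. *NCU01560* had mRNA levels of 20.3, 14.1, 0 and 33.2 and 97.9, 180.2, 76.8 and 183, and *NCU08168*, annotated with a Cyanovirin-N domain, of 0, 4.78, 2.55 and 0 and 44.4, 91.3, 81.1 and 72.8, while their RPF levels did not exceed 3.71 and 1.24 in any library. In the gene order of the NC12 assembly, 10 of the 35 gene models and 20 of the 65 others overlap another gene, against 27% of the eligible genes, and the sources do not state whether reads were counted by strand, so reads of an overlapping gene are not told apart.

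**Figure D3:**
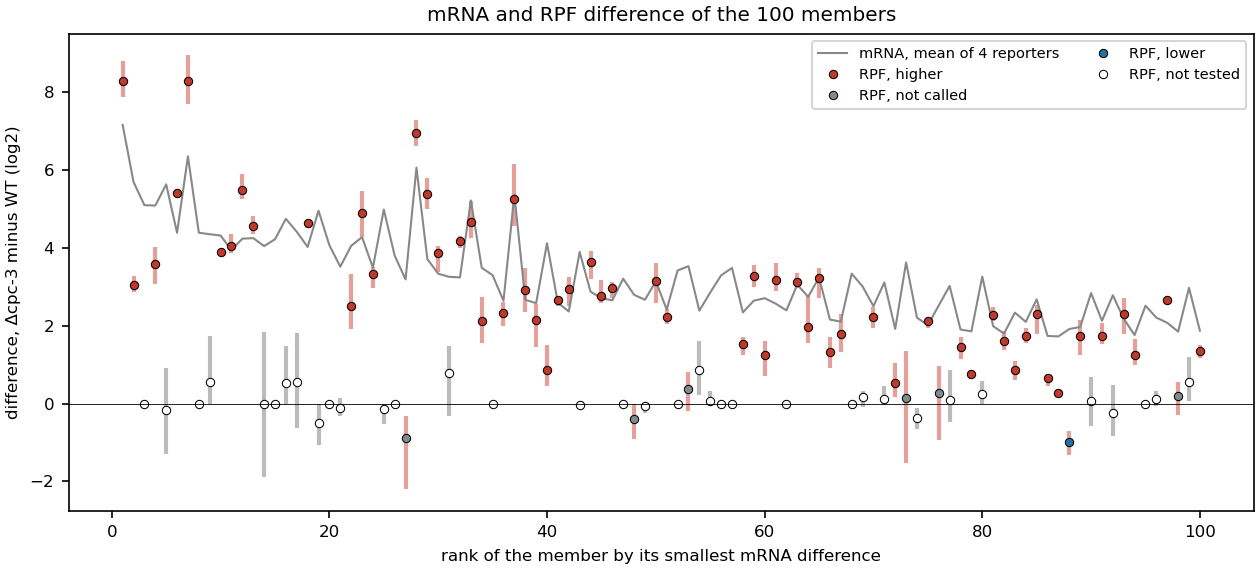
Log2 difference between Δcpc-3 and WT (vertical axis) of the 100 members in the order of their mRNA rank (horizontal axis): the grey line is the mean mRNA difference, the points are the mean RPF differences coloured by call, and the bars span the 4 reporters. Points called higher (58) are found along the whole axis, and points near 0 (the 35 not tested and the 6 not called) are interspersed among them from rank 3 on.

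The extent of the rise differed among the Δ*cpc-3* strains. The 100 members took 0.191% to 0.201% of the summed mRNA level in WT, 1.15% in Δ*cpc-3* 1× WT-EDP and 1.69% to 2.01% in the other 3 Δ*cpc-3* strains. In RPF they took 0.102% to 0.131% in the 12 WT libraries, 0.798% to 0.821% in replicates 1 to 3 of Δ*cpc-3* 1× WT-EDP, 1.88% in its replicate 4, and 1.44% to 1.87% in the other 9 Δ*cpc-3* libraries. In this share replicate 4 stood with the other Δ*cpc-3* strains and apart from its own group. Of the 65 tested members, 44 were above all of replicates 1 to 3 there, with a median difference of 0.56 against -0.19 for all genes tested. The share of all genes tested that lay above replicates 1 to 3 there was not counted. In 46 members the smallest mRNA difference was the one in 1× WT-EDP. The number of members called higher was 57 to 59 without any 1 reporter, and 57 without replicate 4 of Δ*cpc-3* 1× WT-EDP and replicate 3 of each WT strain.

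**Figure D4:**
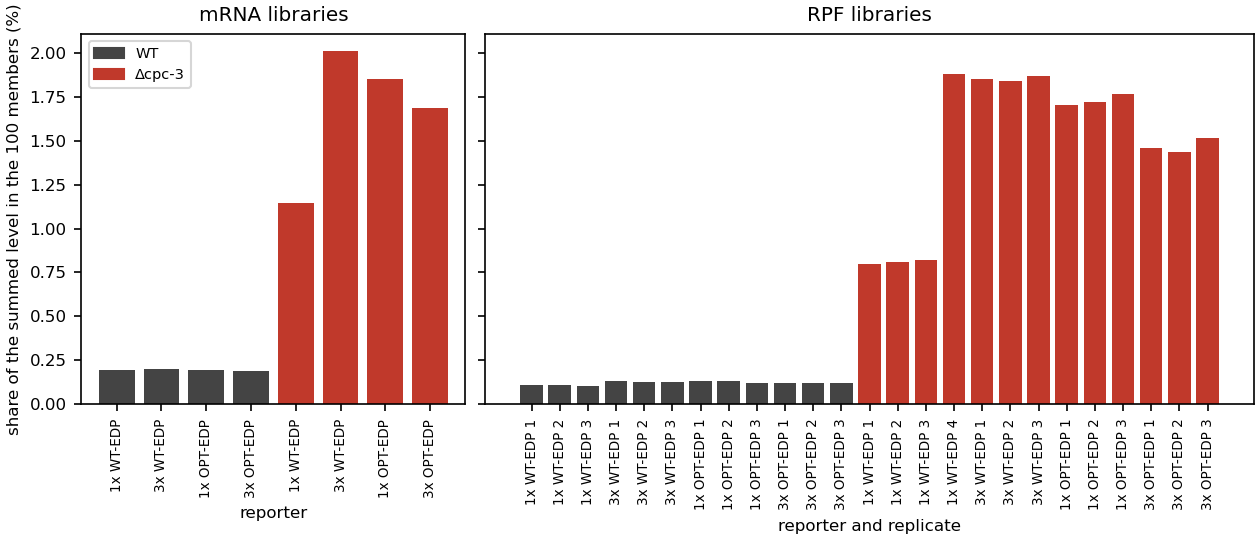
Share of the summed level of all genes taken by the 100 members (vertical axis, percent) in each mRNA library (left) and RPF library (right), WT in dark grey and Δcpc-3 in red. WT bars lie near 0.2% in mRNA and 0.1% in RPF, the Δcpc-3 1× WT-EDP mRNA library and its RPF replicates 1 to 3 at 1.15% and about 0.8%, and all other Δcpc-3 libraries above 1.4%.

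Because the choice rested on all 4 reporters, it was repeated on 3 reporters and read out in the fourth. Leaving out each reporter in the order above, the 100 genes chosen shared 71, 69, 60 and 69 genes with the members. Their median mRNA difference in the reporter left out was 2.33, 2.76, 2.17 and 2.72, and 91, 78, 78 and 87 of the 100 were above 0 there, against 67.2%, 68.2%, 68.2% and 71.8% of the eligible genes. The RPF minimum took in all 8 merged profiles, also those of the reporter left out. A gene with almost no WT footprints could reach it only through Δ*cpc-3*. Such genes were not set apart in the RPF counts that follow, which are a description. Of the 62, 52, 45 and 57 genes tested in RPF, 55, 46, 40 and 51 were above 0 in the reporter left out, against 54.8%, 40.7%, 47.7% and 52.3% of all genes tested. The median of RPF minus mRNA difference in these genes, in the reporter left out, was 0.42, -0.37, -0.06 and -0.12, beside -0.22, -0.36, -0.3 and -0.32 over all genes tested in both assays, and no test was made of the gap, which has the same sign in 3 of the 4 reporters. The median mRNA differences were smaller in a reporter that had no part in the choice and lay above the eligible median of 0.28 to 0.39 per reporter.

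On the chromosomes, both genes next to *cpc-3* in the NC12 order were members. *NCU01188*, annotated as a ubiquitin-conjugating (E2) enzyme of the kind that passes ubiquitin to target proteins, had an mRNA level of 49.5, 46.2, 39.2 and 40.7 in WT and 162, 169, 171 and 216 in Δ*cpc-3*, and an RPF level of 30.7 to 54.3 (median 47.9) and 163 to 245 (median 209) (2.12 ± 0.07 (SE), adjusted p = 1.2e-07). *NCU01186*, on the other side, had an mRNA level of 12.9, 10.3, 9.73 and 13.5 and 42.9, 40.8, 38.5 and 43, and an RPF level of 5.78 to 10.9 (median 9.86) and 24.5 to 34.9 (median 30.5) (1.61 ± 0.08 (SE), adjusted p = 1.9e-06). Neither gene's groups overlapped in either assay. The next genes outward, *NCU01185* and *NCU01189*, had RPF differences of 0.12 (adjusted p = 0.39) and 0.07 (adjusted p = 0.46). The deletion is at this locus, and its part in the levels of these neighbours was not tested.

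A further 4 pairs of members are neighbours of each other, and all 8 genes were called higher in RPF. Beside this, 58 of the 65 members tested and 21% of all genes tested were called higher. The number of such pairs to be expected among 100 eligible genes was not worked out. *NCU09513* and *NCU09514* had RPF differences of 2.65 ± 0.07 (SE, adjusted p = 7.6e-08) and 1.54 ± 0.13 (SE, adjusted p = 3.3e-05). *NCU08055* and *NCU08056* had 3.12 ± 0.17 (SE, adjusted p = 2.2e-06) and 1.8 ± 0.22 (SE, adjusted p = 3.0e-04). *NCU08228* and *NCU08229* had 1.74 ± 0.34 (SE, adjusted p = 0.0034) and 2.23 ± 0.12 (SE, adjusted p = 2.2e-06), and *NCU04409* and *NCU04410* had 1.46 ± 0.12 (SE, adjusted p = 3.4e-05) and 2.23 ± 0.11 (SE, adjusted p = 1.2e-06). *NCU08055* stands out among them by its levels: its mRNA level was 144, 103, 111 and 100.3 in WT and 541, 1273, 1146 and 1027 in Δ*cpc-3*, and its RPF level only 3.95 to 11.9 (median 6.34) and 27.8 to 85.1 (median 64.3). The RPF and mRNA differences of this gene were 3.12 and 3.06, so the low ratio of RPF to mRNA level was present in both genotypes. Counted in gene order, 22 of the 100 members lie within 50 genes of a chromosome end, 15 of the 58 that rose in RPF and 7 of the 35 not tested, against 6.0% of the eligible genes and 5.77% of all genes tested in RPF.

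No member was found in any of 10 lists of named *Neurospora* genes (cross-pathway control, amino acid biosynthesis, conidiation, clock and light, heat shock, antioxidant enzymes, ribosomal proteins, carbon response, nutrient acquisition, sexual development), but only 168 of the 297 listed symbols were matched to a gene, among them 11 of 81 for ribosomal proteins and 50 of 82 for amino acid biosynthesis. The lists go by symbol, which 93% of the members lack, as do 85.8% of the eligible genes, so the lists could hold few of the members. The CDS minimum of 300 nt also kept listed genes out of the choice and the tests, among them *mfa-1* of the sexual development list. *mfa-1* had a mean mRNA level of 0 in WT and 57.5 in Δ*cpc-3*, and a mean RPF level of 0 and 13.1. These are log2 differences of 6.8 and 4.56, neither of which was tested. *cpc-1* had a mean mRNA level of 857 in WT and 1236 in Δ*cpc-3*, a difference of 0.53 ± 0.13 (SE, adjusted p = 0.032) that was not called after the median of all genes was subtracted, and an RPF difference of 0.04 ± 0.08 (SE, adjusted p = 0.71). Of 50 amino acid biosynthesis genes tested in RPF, 1 was higher and 33 were lower, beside 21% and 22.9% of all genes tested, with a median difference of -0.45 beside -0.01. Their mRNA was also lower: 1 of the 50 was called higher and 18 lower, beside 15.7% and 2.11% of all genes tested. The median mRNA difference was -0.32 beside 0.41, and 33 were called lower in mRNA after the median of all genes was subtracted. Of 9 conidiation genes tested in RPF, 7 were higher, among them *eas*, which codes for the hydrophobin of the spore coat (1.66 ± 0.29, adjusted p = 0.0019). In RPF 1 was lower (*acon-2*), and the median difference was 0.45. In mRNA 3 of 10 conidiation genes tested were called higher and 0 lower, with a median difference of 0.54. *acon-3*, a regulator of conidiophore formation that missed the choice by a small margin, was higher in RPF by 1.67 ± 0.13 (adjusted p = 2.5e-05).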

How the data were processed

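Ribosome profiling (25 RPF libraries) and mRNA-seq (8 libraries) of WT and Δ*cpc-3* mycelia were analysed. The authors mapped reads to CDS regions and deposited, per library and gene, FPKM values with the bounds of an interval around them. The submitters' processing notes name Bowtie2 and Cufflinks. Their versions, the build and the gene models are not given in the sources used here. The bounds are whole numbers of reads in 100% of the values checked (tolerance 0.02), which gave the reads per library. Bounds of high read number were left out of this check. The level of a gene was the midpoint of its interval, scaled to a sum of 1000000 over 9729 genes after the 2 reporter entries were left out. At 1 to 3 reads the midpoint lies somewhat above the read number.

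RPF replicates were merged per strain by a mean weighted by library reads. Log2 levels (0.5 added) of the 4 Δ*cpc-3* and 4 WT profiles were compared, unpaired, with limma 3.58.1 (R 4.3.3) and Benjamini-Hochberg adjustment over all genes of at least 300 nt and a mean level of at least 1. The fold changes are on the log2(level + 0.5) scale, which understates changes of low genes. The study calls the RPF replicates biological, and p-values measure the spread between reporter strains. The fit was also run on simulated data with independent noise, and nothing is read from that step about these libraries. Tables and plots used Python 3.11.15, numpy 2.4.6, pandas 2.3.3 and matplotlib 3.10.9. Gene symbols and gene order came from the NC12 assembly table, which holds 9728 of the 9729 genes, and no coordinates are given because the build of the files is not named. The member choice and the gene lists were made with earlier results of these data known. Named in the text are the 10 members ranked first in mRNA, the 10 highest and 10 lowest in mean RPF difference among those tested, members with a symbol, those beside another member or beside *cpc-3*, the 3 on either side of the edge of the choice, and members with 1 library far from the other 3. *NCU04583*, *NCU16318*, *NCU01560* and the genes beside *cpc-3* were added after their values were seen. Alternatives were tried for the pseudocount, filter, level, centring, merging, pairing, test and libraries.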

Additional observations from a re-analysis of the deposited data

Results flagged for a closer look

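Groups of 4 libraries or merged profiles of a member were searched for 1 value far from the other 3 by Dixon's criterion, in 275 groups with a mean level of at least 1 and no value of 0. It was met in 13, and chance gives about 1 in 20 groups. In 5 members the mRNA level of Δ*cpc-3* 1× WT-EDP lay below the other 3 Δ*cpc-3* strains: *NCU10641* had 21.3 against 68.8 to 74.3, *NCU07149* 23.5 against 45.5 to 50.3, *NCU06186* 13.4 against 26.6 to 30.2, *NCU04713* 63.7 against 108 to 114 and *stk-52* (*NCU08767*) 207 against 304 to 322. In *NCU11134* the same library lay above the others, at 13.3 against 2.02 to 2.84, and this gene was listed at 0 in all RPF libraries. *NCU05707* had a low mRNA level in Δ*cpc-3* 1× OPT-EDP, 19.2 against 26.9 to 28.6, and *NCU07351* in WT 1× OPT-EDP, 13.1 against 23.7 to 25.5.

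In merged RPF profiles *NCU07791* was high in Δ*cpc-3* 3× OPT-EDP (94.4 against 75.1 to 76.1), *NCU01088* was low there (8.09 against 11.6 to 12.1), and *NCU05377* was low in Δ*cpc-3* 3× WT-EDP (3.34 against 4.79 to 4.86). *NCU07840* was high in Δ*cpc-3* 1× WT-EDP (15 against 7.73 to 8.43), and *NCU03107* was low in WT 1× WT-EDP (16.1 against 27.5 to 28.4).

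Among the 4 RPF replicates of Δ*cpc-3* 1× WT-EDP, replicate 4 had a summed level of the 100 members of 18799.5 against 7984 to 8214 in replicates 1 to 3. The same criterion was met by replicate 4, as the highest value, in 16 of 60 tested members with a level above 0 in these libraries, and by replicate 3 in 1. No member had Δ*cpc-3* libraries wholly above WT in 1 reporter and wholly below in another.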

How the results depend on the processing

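The count of members called higher in RPF was 58 of 65 tested and stayed within 1.5 times under all alternatives, at 49 to 59. It was 57 to 59 without any 1 library or reporter. The count of members called lower was 1, and 1 or 2 without any 1 library or reporter. With the 25 libraries tested singly it was 2, without a block and with reporter and replicate block, where 58 members were called higher. Testing the libraries singly counts the replicates of 1 strain as independent, so its p-values do not measure the spread between strains. In RPF, the replicate numbers and the shared reporters did not pair the samples. Same-numbered correlations of libraries ran from -0.074 to 0.07, beside -0.078 to 0.087 for other numbers. Correlations of merged profiles ran from -0.15 to 0.17 for the same reporter and from -0.25 to 0.23 for different reporters. Correlations of mRNA libraries ran from 0.0061 to 0.16 for the same reporter and from -0.17 to 0.14 for different reporters, and this gap was not tested.

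With the deposited FPKM 944 genes were higher and 2650 lower in RPF, and 53 and 1 of 60 members. The median RPF difference of the members tested, 2.32, was 2.5 with a pseudocount of 0.1, 1.74 without a filter (87 members), 2.71 with a mean of at least 5 (50 members), 2.18 with FPKM, and 2.27 to 2.39 without 1 library and 2.25 to 2.46 without 1 reporter. In mRNA, 548 genes were higher and 44 lower with the reporter as a block, and 413 and 991 after median centring, an alternative chosen after seeing the data. Without 1 mRNA library these were 753 to 1234 and 76 to 136. The higher count moved most without Δ*cpc-3* 3× OPT-EDP (753), 3× WT-EDP (839) or 1× OPT-EDP (864), and the lower count without Δ*cpc-3* 3× WT-EDP (76), 1× OPT-EDP (87) or 3× OPT-EDP (102) or WT 3× WT-EDP (99), 1× OPT-EDP (109) or 3× OPT-EDP (110). Genes called in RPF without 1 reporter were 991 to 1141 higher and 1045 to 1463 lower, and without 1 library 1314 to 1449 and 1362 to 1715. The cause of these shifts was not tested.

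The choice itself shared 96 and 93 members with pseudocounts of 0.1 and 1, 84 and 79 with a mean of at least 1 and 10, 97 without a length minimum, 76 with FPKM and 54 when ranked by the mean in place of the smallest difference. Of 43 named members tested, 37 kept their call under every alternative that could be fitted, and none of the 43 changed sign with a call. For the 35 members under the RPF minimum the depth did not allow a test.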

Other observations

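Of the 100 genes with the highest smallest-of-4 RPF difference among the 6809 tested, 48 were members, and 47 of the 100 with the highest mean RPF difference were. Members made up 65 of the 6809 genes. The 12 members with a WT mean RPF level under 1, which reached the RPF minimum only through Δ*cpc-3*, were not set apart in these counts. Across the 65 members tested, mean mRNA and RPF differences had a Pearson correlation of 0.76 and a Spearman correlation of 0.7. Genes are not independent replicates, the members were chosen for a high mRNA difference, and all points share the same libraries, so the correlations are a description. Of the members, 42 have a CDS under 1000 nt, 24 of them among the 35 not tested in RPF, against 30.04% of the eligible genes.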
